A study of Gallus gallus with 9 samples.

Results

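Corneal endothelium of the chick embryo at embryonic day 5 (E5) was compared with periocular neural crest at embryonic day 3 (E3), in 3 RNA-sequencing libraries of each, which are 6 of the 9 libraries of the study. The libraries were chosen by their labelled tissue and stage alone. The other 3 libraries, of E7 corneal endothelium together with keratocytes, entered the fit for the filter on low counts, the scaling and the spread between samples, and are not compared here. All tissue came from Gallus gallus embryos, the labels name no treatment or genetic change, and total RNA was sequenced. Nothing in the labels tells if replicate libraries were prepared from different embryos or from 1 pool, so that p-values refer to the spread among samples alone, possibly technical.

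Neural crest cells leave the dorsal neural tube and collect around the eye cup as periocular mesenchyme. Some of them migrate between the lens and the surface ectoderm and settle there as the corneal endothelium, a single cell layer on the inner face of the cornea that later keeps the stroma clear by pumping fluid. Crest cells that enter later, in front of the endothelium, become keratocytes, the fibroblasts of the stroma. The genes described here lie mainly outside the matrix, WNT and neural crest genes that usually represent these tissues.

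Library totals ran from 18405559 to 22055958 expected counts at E3 and from 18815844 to 23205388 at E5. Across the 11748 genes tested, log2 values of CPM (scaled counts per library total, pseudocount 1) correlated at 0.987 to 0.989 among the E3 libraries and at 0.984 between E5 libraries 1 and 2. E5 library 3 stood apart, with correlations of 0.941 and 0.948 with the other E5 libraries and of 0.975 and 0.981 with the first 2 libraries labelled E7. The third library labelled E7 correlated at 0.985 and 0.981 with E5 libraries 1 and 2. These are correlations across genes of single libraries and are given as descriptions. Which of these 2 profiles belongs to E5 was not tested. The question concerns E5 libraries 1 and 2 as much as E5 library 3. An exchange of E5 library 3 with E7 library 3, or of the first 2 libraries of each label, was not tested. The labels were kept, so every E5 value and every E5 result holds for the libraries as labelled. In E5 library 3, 1310 genes (11.2%) lay 1 or more log2 units from the mean of the other 2 libraries of the group, against 660 and 516 genes in E5 libraries 1 and 2 and 165 to 186 genes in the E3 libraries. Of 197 genes followed without E5 library 3, 194 kept their side of the threshold, and none that passed with or without it changed direction. Not every gene named below is among the 197, and values without that library are given for some of the genes that rested on it.

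The labelled tissues were set against genes that mark them. For comparison with the marker counts, 18.5% of all genes tested passed the test as higher at E5 and 17.7% as lower. Of 14 corneal endothelial markers tested, 6 rose at E5 and 3 fell, while 5 did not pass the test. AQP1, TFAP2B, LMX1B, COL8A2 and CDH2 were among those that rose, and TJP1, ALCAM and CA2 were the 3 that fell. Keratocyte markers were also high at E5, with 8 of 11 risen. The summed level of the keratocyte list was 1709 to 1908 scaled CPM at E3 and 36910, 29690 and 9257 in E5 libraries 1, 2 and 3, so library 3 was the lowest of the group. The erythroid list summed to 2402 to 2882 scaled CPM at E3 and to 35.4 to 49.7 at E5, with 6 of 7 members lower. The vascular endothelial list summed to 737 to 846.1 at E3 and to 350.8, 409.3 and 443.2 at E5, with 8 of 15 members lower and 1 higher. Neuronal markers summed to 47.9 to 51.3 at E3 and 19.6 to 26.6 at E5, and 5 of 9 fell. In these bulk samples, fewer cells of a type and less RNA per cell cannot be told apart, and the part of these other cell types in the results that follow was not tested.

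At an adjusted p under 0.05 (edgeR's quasi-likelihood test, Benjamini-Hochberg adjustment over all genes tested), 2172 genes were higher at E5 and 2077 were lower, together 36.2% of those tested. By direction, 18.5% of genes were higher and 17.7% lower. A log2 fold change of 1 or more was reached by 1219 of the higher genes (10.4% of those tested) and by 677 of the lower ones (5.76%). Over all genes the log2 fold change had a median of 0.03. When libraries were scaled by their totals alone, this median was -0.14 and 1652 genes were higher against 2955 lower, and on FPKM with limma (pseudocount 1) the median was -0.11, with 1530 higher and 3200 lower. Under scaling by totals the median of 14 of the 43 gene lists described here changed sign, all of them lists with a median of 0.16 or less in size, so gene groups were read against the median of all genes. Without E5 library 3 the counts were 2345 higher and 2292 lower. They were 1428 and 1334 without E3 library 2, 1424 and 1354 without E3 library 3, and 1509 and 1351 without E5 library 1.

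The genes that gained most, outside the matrix, WNT and crest lists, included a water channel, a hormone receptor, growth factors and transcription factors, and most were almost silent at E3. AQP1 (gene 420384), the water channel of endothelia, was listed at 0.48, 1.2 and 1.03 FPKM in the E3 libraries and at 1080, 1080 and 524 FPKM in the E5 libraries. Its log2 fold change was 10.11 ± 0.63 (SE, adjusted p = 2.61e-05). GHRHR (gene 420385), the growth hormone-releasing hormone receptor, had no counts in any E3 library and 66.9, 65.6 and 3.4 FPKM at E5. E5 library 3 was thus far below the others of its group, although still above every E3 library. Set against a floor of 3 counts over the E3 group, GHRHR was at least 1791-fold higher at E5 (adjusted p = 0.0268), and the call was lost without any one of the E3 libraries or E5 libraries 1 or 2 (adjusted p = 0.0577 to 0.0654). AQP1 and GHRHR are direct neighbours in the RefSeq gene order, and whether reads running on from the more abundant AQP1 were counted for GHRHR was not tested.

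C4ORF19 (gene 101747284), a gene with little known function, stood at 0.17, 0.18 and 0.02 FPKM at E3 and at 42.5, 60.6 and 57.1 FPKM at E5 (log2 fold change 8.93 ± 0.39, adjusted p = 6.3e-06). Its E5 values were close together in all 3 libraries, including the third. FGF9 (gene 378917), a secreted fibroblast growth factor, was at 0, 0.06 and 0.11 FPKM and rose to 33.6, 32.5 and 6.07 FPKM. With 3 counts in the whole E3 group, its ratio was 459 with a 95% interval of 157 to 2227 that covers counting error only (adjusted p = 0.00249). FGF16 (gene 422330), of the same FGF subfamily, went from 0.27, 0 and 0.15 FPKM to 21.4, 24.9 and 16.9 FPKM (log2 fold change 7.31 ± 0.65, adjusted p = 0.000173). Both ligands were therefore present in every E5 library, and FGF9 was lowest in library 3.

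POU3F4 (gene 100857422), a POU homeobox factor known from inner ear mesenchyme, was at 0.25, 0.31 and 0.11 FPKM at E3 and at 105, 58 and 11.2 FPKM at E5 (log2 fold change 8.24 ± 1.53, adjusted p = 0.00471). SHOX (gene 418669), a homeobox factor of limb skeletal growth, went from 0.05, 0.31 and 0.15 FPKM to 14.9, 17.7 and 55.2 FPKM (7.39 ± 0.83, adjusted p = 0.000531). The pair departed in opposite directions in E5 library 3, POU3F4 being lowest there and SHOX highest. Less studied genes filled the remaining places. MAP3K15, a kinase of the stress-activated cascade, stood at 0.01 to 0.04 FPKM at E3 and at 8.01, 9.17 and 20.7 FPKM at E5. SIAH3, of the SIAH ubiquitin ligase family, stood at 0.02 to 0.04 FPKM at E3 and 8.45, 8.3 and 7.11 FPKM at E5. ABCB5, an ATP-binding cassette transporter known from limbal stem cells in mouse and human cornea, went from 0.02 to 0.05 FPKM to 3.28, 5.68 and 8.42 FPKM. ANKRD34C, an ankyrin-repeat gene, went from 0.05 to 0.08 FPKM to 11.5, 8.3 and 6.1 FPKM. These 4 genes rose with adjusted p = 5.03e-05, 1.59e-05, 8.06e-05 and 2.61e-05, and groups without overlap were a condition of their choice.

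ANGPTL7, a secreted angiopoietin-like protein known from the cornea and trabecular meshwork, behaved differently between E5 libraries. It was at 0 to 0.03 FPKM at E3 and at 1.01, 2.28 and 18.5 FPKM at E5, so most of its level was in library 3. It rose by 8.89 ± 2.10 on the log2 scale (adjusted p = 0.0129), and missed the threshold when E3 library 1, 2 or 3 was left out (adjusted p = 0.0504, 0.05 and 0.0526). Without E5 library 3 the log2 fold change was 6.83 (adjusted p = 0.0219).

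**Figure D1:**
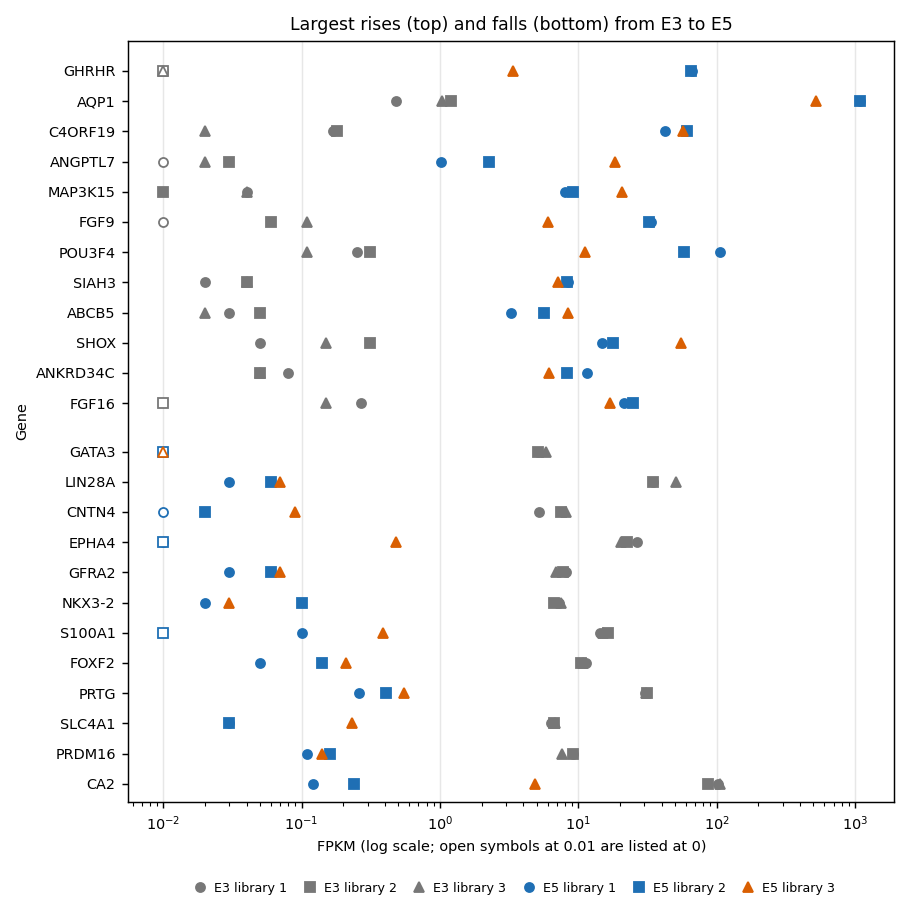
FPKM on a log scale of the 12 largest rises and 12 largest falls from E3 to E5 outside the matrix, WNT and neural crest lists, 1 symbol per library, with open symbols for values listed at 0. The 24 genes were chosen among those whose E3 and E5 libraries did not overlap, which held for 54.4% of all genes tested. E5 library 3 (orange) lay below the other E5 libraries for GHRHR, FGF9 and POU3F4 and above them for ANGPTL7, SHOX and CA2.

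Genes that were lost included regulators of early embryonic cells and receptors of migrating and neural cells. LIN28A (gene 428206), an RNA-binding protein that blocks let-7 maturation in early embryos, was at 34.5, 34.7 and 50.8 FPKM at E3 and at 0.03, 0.06 and 0.07 FPKM at E5. It fell by 9.29 ± 0.45 on the log2 scale (adjusted p = 9.95e-06). GATA3 (gene 419106), a zinc-finger factor of ectoderm and sympathetic neurons, was at 5.14, 5.13 and 5.87 FPKM at E3 and had no counts in any E5 library, at least 182-fold lower against a floor of 3 counts over the E5 group (adjusted p = 0.0021). PRDM16 (gene 419388), a zinc-finger chromatin factor of craniofacial mesenchyme, went from 9.23, 9.18 and 7.57 FPKM to 0.11, 0.16 and 0.14 FPKM (log2 fold change -5.77 ± 0.26, adjusted p = 7.69e-06). These 3 genes were uniformly low in the E5 libraries, the third included.

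EPHA4 (gene 395559), an ephrin receptor that steers migrating cells, was at 26.4, 22.4 and 20.4 FPKM at E3 and at 0, 0 and 0.48 FPKM at E5. What remained of it lay in E5 library 3. The log2 fold change was -7.10 ± 1.13 (adjusted p = 0.00248). Without that library E5 was listed at 0 FPKM, so the fitted value (-13.43) gives a direction but no measured size. GFRA2 (gene 395993), the neurturin co-receptor, went from 8.12, 7.71 and 6.92 FPKM to 0.03, 0.06 and 0.07 FPKM (log2 fold change -6.93 ± 0.93, adjusted p = 0.00119). CNTN4 (gene 396149), a neural contactin, was at 5.21, 7.49 and 8.1 FPKM and then at 0, 0.02 and 0.09 FPKM (-7.49 ± 0.91, adjusted p = 0.00194). PRTG (gene 415407), a protogenin cell-surface receptor of the early embryo, was at 30.2, 31.5 and 31 FPKM and then at 0.26, 0.41 and 0.55 FPKM (-6.09 ± 0.49, adjusted p = 0.0001). All 4 surface proteins were close to 0 in E5 libraries 1 and 2. EPHA4, CNTN4 and PRTG were slightly higher in library 3, while GFRA2 was about as low there as in library 2.

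NKX3-2, a homeobox repressor of jaw and somite skeleton, FOXF2, a forkhead factor of craniofacial mesenchyme, and S100A1, a calcium-binding protein, were also among the 12 largest falls. NKX3-2 went from 6.66 to 7.52 FPKM to 0.02 to 0.1 FPKM, FOXF2 from 10.5 to 11.4 FPKM to 0.05 to 0.21 FPKM, and S100A1 from 14.3 to 16.5 FPKM to 0 to 0.39 FPKM (adjusted p = 0.000428, 0.0001 and 0.00433). SLC4A1, the anion exchanger of red cells, and CA2, a carbonic anhydrase of red cells that is also a corneal endothelial enzyme, fell together with the haemoglobin genes. CA2 was at 103, 87 and 105 FPKM at E3 and at 0.12, 0.24 and 4.89 FPKM at E5 (log2 fold change -5.72, or -8.83 with E5 library 3 left out, adjusted p = 0.0121). SLC4A1 was at 6.39, 6.66 and 6.84 FPKM and then 0.03, 0.03 and 0.23 FPKM (adjusted p = 0.00441). HBBR, the beta-type globin with the most counts, was at 1955, 2597 and 2213 FPKM at E3 and at 2.95, 0.86 and 30.9 FPKM at E5, with the caution that globin genes are near-identical and reads may be shared between them.

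Some genes changed strongly while their 3 E5 libraries lay within 1.5-fold of each other. C4ORF19 headed the risen ones. SLC41A2 (gene 427913), a magnesium transporter, went from 2.93, 2.99 and 2.34 FPKM to 66.4, 77.6 and 76.3 FPKM (log2 fold change 4.91 ± 0.13, adjusted p = 4.63e-07). TGFB2 (gene 421352), the growth factor of the anterior eye, went from 1.95, 2.05 and 2.35 FPKM to 50.6, 62.5 and 77.1 FPKM (5.07 ± 0.16, adjusted p = 2.01e-06). RHPN1 (gene 420299), a scaffold protein, went from 5.12, 5.5 and 4.85 FPKM to 164, 165 and 133 FPKM (5.08 ± 0.19, adjusted p = 3.86e-06). For these genes the third E5 library lay close to the first and second. VGLL3, a cofactor of TEAD factors, rose from 0.2 to 0.26 FPKM to 13.1 to 15.2 FPKM, ISM1, a secreted isthmin, from 0.06 to 0.2 FPKM to 13.4 to 17.9 FPKM, and PDPN, the mucin-like protein podoplanin, from 0.44 to 0.99 FPKM to 18.6 to 22.2 FPKM. HS3ST6, a heparan sulphate sulphotransferase, rose from 0.33 to 0.65 FPKM to 14.6 to 16.1 FPKM. Adjusted p for these 4 genes was 2.25e-06, 1.83e-05, 1.66e-05 and 1.61e-05.

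Among the uniform falls, LIX1, a gene of limb and gut mesenchyme, went from 28.9, 26.9 and 22.1 FPKM to 1.78, 2.28 and 1.74 FPKM (log2 fold change -3.56 ± 0.24, adjusted p = 3.9e-05). ID1, an inhibitor of basic helix-loop-helix factors and a BMP response gene, went from 253, 248 and 323 FPKM to 53.9, 74.1 and 68.6 FPKM (-1.89 ± 0.19, adjusted p = 0.000345). HES4, a hairy-type repressor, went from 21.9, 22.6 and 21.3 FPKM to 6.44, 4.53 and 4.77 FPKM (-1.88 ± 0.18, adjusted p = 0.000287). All 3 kept a measurable level at E5, which was a condition for the choice of uniform falls. The other members of this set were MICALL2 (-2.61), a junctional trafficking protein, LMO2 (-2.08), a transcriptional cofactor of blood and endothelium, FAP (-2.04), a surface protease of fibroblasts, HSPB9 (-2.03), a small heat-shock protein, and SPON1 (-1.85), the floor-plate protein spondin, each at an adjusted p of 0.00092 or less.

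Transcription factors split by family. Of 40 T-box, RUNX, NFI, MAF and TEAD factors and their relatives tested, 17 rose and 2 fell, 47.5% called, with a median log2 fold change of 0.77. Scaled by total, 15 rose and 4 fell, and 4 fell without E5 library 3. TBX2 (gene 373990), a T-box repressor of eye and limb, went from 6.15, 4.8 and 4.86 FPKM to 87.4, 73.3 and 84.7 FPKM (log2 fold change 4.13 ± 0.14, adjusted p = 2.01e-06). NFIA, a nuclear factor I protein, went from 1.95 to 2.36 FPKM to 25.9, 26.8 and 14.1 FPKM (3.59 ± 0.41, adjusted p = 0.000569). CREB3L1, a membrane-bound factor that activates secretory genes, went from 8.11 to 9.27 FPKM to 118, 107 and 34.9 FPKM (3.49 ± 0.77, adjusted p = 0.00949). TBX2 was even across the E5 libraries, whereas NFIA and CREB3L1 were lowest in library 3. FOSL2, of the AP-1 family, rose by 3.81. TBX15, a T-box factor of craniofacial and limb mesenchyme, was at 4.33, 3.18 and 2.08 FPKM at E3 and had no counts at E5, at least 204-fold lower (adjusted p = 0.0016), and TBX3 fell by 2.02 (adjusted p = 0.00163). So 1 gene of the closely related TBX2 and TBX3 pair rose and the other fell.

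In a chosen list of homeobox factors, mainly of trunk and limb type, most changes went the other way, with 4 of 32 higher and 12 lower (50% called, median -0.56). The list does not hold every homeobox factor outside the crest list. It leaves out POU3F4, which rose, and NKX3-2, which fell, and ZFHX3, which rose, was counted with the zinc-finger factors. MSX1, a craniofacial homeobox factor, went from 22.3, 15 and 22.4 FPKM to 0.76, 0.61 and 0.9 FPKM (-4.54 ± 0.28, adjusted p = 2.61e-05). MEOX2, a mesodermal homeobox factor, went from 3.82 to 4.74 FPKM to 0.02 to 0.05 FPKM (adjusted p = 0.00113). Against this direction, EMX2, known from forebrain and urogenital patterning, rose from 9.33, 6.22 and 8 FPKM to 77.2, 62.8 and 104 FPKM (3.54 ± 0.20, adjusted p = 1.92e-05), and SHOX2, the relative of SHOX, rose by 4.77 ± 0.44 (adjusted p = 0.000198). PBX3, a TALE cofactor, rose by 1.53 (adjusted p = 0.00384).

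Of 34 basic helix-loop-helix, ID and MYC genes, 6 rose and 12 fell (52.9% called, median -0.21). SCX, the tendon factor scleraxis, went from 4.32, 4.62 and 4.89 FPKM to 41.6, 44.6 and 74.6 FPKM (3.70 ± 0.26, adjusted p = 5.15e-05). EBF2 and EBF3, early B-cell factors of mesenchyme and neurons, fell, with log2 fold changes of -5.63 and -4.11 (adjusted p = 0.000141 and 4.38e-05), and MSC, the muscle repressor musculin, fell by 4.16 (adjusted p = 0.000494). The MYC antagonist MXD4 rose by 1.98 (adjusted p = 0.00514) and BHLHE40, a clock-linked repressor, by 1.88 (adjusted p = 0.000151). Scleraxis thus moved against the majority of its list.

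Nuclear receptors gave 6 rises and 7 falls among 24 tested (54.2% called, median -0.35). NR2F1 and NR2F2, the COUP-TF receptors of neural crest and vessels, were the most abundant to fall. NR2F1 was at 70.5, 59.7 and 69.8 FPKM and then at 7.14, 4.95 and 11.2 FPKM (-2.94 ± 0.28, adjusted p = 0.000265). NR2F2 was at 89, 81.3 and 104 FPKM and then at 11.8, 9.22 and 20.4 FPKM (-2.56 ± 0.26, adjusted p = 0.00032). Both were highest at E5 in library 3 without reaching E3. NR6A1, the germ cell nuclear factor of early embryos, fell by 1.67 (adjusted p = 0.000414), while PPARA and RXRA, which pair on lipid genes, rose by 1.35 and 0.75 (adjusted p = 0.00105 and 0.00368). Zinc-finger factors also split, with 7 of 36 higher and 9 lower (44.4% called). ZFHX3, a large homeodomain zinc-finger protein, rose by 3.03 ± 0.16 (adjusted p = 1.61e-05) and the teashirt factor TSHZ3 by 2.82 (adjusted p = 0.000184), and EGR1, an immediate early gene, rose from 2.8 to 4.9 FPKM to 28.4, 47.6 and 18.7 FPKM (adjusted p = 0.00053). Beside EGR1, the immediate early gene FOS rose by 1.65 (adjusted p = 0.00715) and JUN, at 71.4 to 101 FPKM and 79.5 to 120 FPKM, did not pass (adjusted p = 0.23). In the joint list of immediate early and heat shock genes, 4 of 9 rose and 3 fell (77.8% called against 36.2% of all genes, median 0.42). Its sum was 5028 to 5895 scaled CPM at E3 and 3208 to 3900 at E5. That sum adds both classes and follows the most abundant members, so it does not give the direction of the immediate early genes. The part of such a response in the EGR1 result was not tested.

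Ribosome biogenesis and nucleolar genes had the largest share of called members among the 43 lists. Of 58 genes tested, 51 fell and none rose, so that 87.9% were called against 36.2% of all genes, with a median log2 fold change of -0.78. Falls numbered 53 without E5 library 3 and 54 when libraries were scaled by total alone. NPM1 (gene 396203), the nucleolar chaperone nucleophosmin and 1 of the 10 most abundant genes at E3 outside the matrix, WNT, crest and haemoglobin lists, was at 2508, 2565 and 2707 FPKM at E3 and at 1043, 1190 and 1388 FPKM at E5 (log2 fold change -0.93 ± 0.10, adjusted p = 0.000447). NPM3, its smaller relative, went from 205, 227 and 244 FPKM to 36.2, 60.6 and 57.4 FPKM (-1.96 ± 0.23, adjusted p = 0.000641). LYAR, a nucleolar growth regulator, fell by 1.35 (adjusted p = 0.000109) and MYBBP1A, a nucleolar MYB-binding protein, by 1.29 (adjusted p = 0.00221). The groups did not overlap for any of these 4 called genes, which was also so for 54.4% of all genes tested.

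Ribosomal protein genes, which encode the parts that these factors assemble, were called far more rarely. Of 62 tested, 1 rose and 2 fell (4.84% called), with a median of -0.01, and their summed level was 43210 to 44530 scaled CPM at E3 and 45600, 43300 and 41410 at E5. When libraries were scaled by total, 18 fell, none rose and the median was -0.19. RPS2, a small-subunit protein, was at 2187, 2023 and 2317 FPKM and then at 1706, 1963 and 2071 FPKM (log2 fold change -0.01, adjusted p = 0.944). RPLP1, an acidic stalk protein, was at 1956 to 2029 FPKM and then at 1716 to 1869 FPKM (0.01, adjusted p = 0.909). Fold changes are on the TMM scale and FPKM values are not, so the 2 can differ in sign for small changes. Near-identical copies make individual ribosomal protein genes uncertain.

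**Figure D2:**
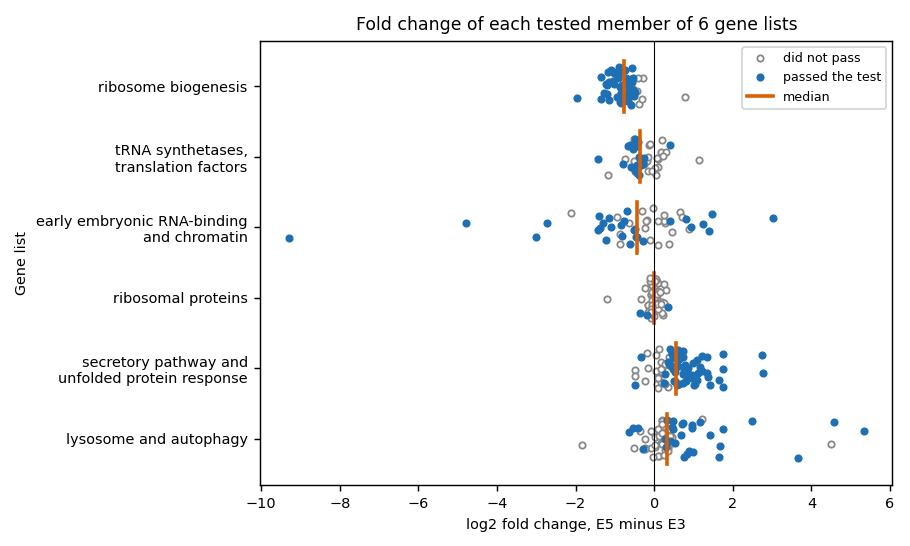
Log2 fold change (E5 minus E3) of each tested member of 6 gene lists, filled where the gene passed the test, with the list median as an orange bar. Members of the ribosome biogenesis list lie almost all below 0 (median -0.78), ribosomal proteins lie around 0 (median -0.01), and secretory pathway genes lie mostly above 0 (median 0.56).

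Falls also outnumbered rises among translation genes and among genes of the tricarboxylic acid cycle. Of 44 aminoacyl-tRNA synthetases and translation factors, 21 fell and 1 rose (50% called, median -0.36). EIF5A2, a hypusinated elongation factor, went from 121, 131 and 134 FPKM to 63.1, 62.8 and 71 FPKM (-0.79 ± 0.09, adjusted p = 0.000573), and the cap-binding homologue EIF4E3 fell by 1.44 (adjusted p = 0.00145). EEF2, the elongation factor that moves the ribosome, was the gene that rose, by 0.39 (adjusted p = 0.0214), and it did not pass without E3 library 1, E3 library 2 or E5 library 1 (adjusted p = 0.0605, 0.0842 and 0.0673) or when libraries were scaled by total (0.21, adjusted p = 0.118). Among 53 genes of the tricarboxylic acid cycle and mitochondrial biogenesis, 19 fell and 7 rose (49.1% called, median -0.27), with 12 falls without E3 library 2. When scaled by total, 30 fell and 5 rose. The paired mitochondrial chaperonins moved together. HSPD1 was at 518, 508 and 540 FPKM and then at 167, 197 and 250 FPKM (-1.18 ± 0.17, adjusted p = 0.00157), and HSPE1 was at 496, 473 and 505 FPKM and then at 161, 204 and 214 FPKM (-1.17 ± 0.16, adjusted p = 0.00126). Cytosolic chaperones HSPH1 and HSP90AA1 also fell, the latter from 957 to 1205 FPKM to 441 to 540 FPKM (adjusted p = 0.00132 and 0.00164).

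Early embryonic RNA-binding and chromatin genes fell in 21 of 49 cases and rose in 7 (57.1% called, median -0.43), with 27 falls without E5 library 3. Beside LIN28A, the related LIN28B was at 77.5, 82.1 and 87.7 FPKM at E3 and at 0.27, 0.41 and 6.91 FPKM at E5. E5 library 3 held most of what remained, and the log2 fold change was -4.78 with it (adjusted p = 0.0302) and -7.43 without it (adjusted p = 0.00498), while the call was lost without any one of the other 5 libraries (adjusted p = 0.0649 to 0.0839). TRIM71, a let-7 target of early embryos, fell from 13.7 to 15.1 FPKM to 1.03, 1.31 and 2.42 FPKM (-3.01 ± 0.35, adjusted p = 0.000577), and SALL4, a stem cell zinc-finger factor, fell by 2.73 (adjusted p = 6.02e-05). In the other direction, MSI2, the RNA-binding protein musashi 2, rose by 1.25 ± 0.10 (adjusted p = 9.61e-05) and SMARCA2, a remodelling ATPase, by 1.39 (adjusted p = 0.00163).

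Splicing regulators stood at the other extreme, with 1 of 35 higher and 4 lower (14.3% called, median 0.10). The called genes were SRSF2 (higher) and PTBP3, QKI, RBM25 and SRSF3 (lower, with log2 fold changes of -0.86, -0.36, -0.29 and -0.25). SRSF2 was listed at 0, 0.59 and 0 FPKM at E3 and at 6.23, 7.44 and 3.7 FPKM at E5 (adjusted p = 0.0266), and its adjusted p reached 0.0641 when 1 library was left out. Accession entries without a matched gene were left out of the sums, and whether reads of SRSF2 lay on such entries was not tested. The listed values may therefore not hold its whole level. The counts were 8 lower and 2 higher without E5 library 3, 1 lower without E3 library 2 or 3 or E5 library 1, and 2 lower without E5 library 2.

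Genes of the secretory pathway and unfolded protein response rose in 57 of 82 cases and fell in 2 (72% called, median 0.56). The count was 59 without E5 library 3 and 45 when libraries were scaled by total. SEC24D, a COPII coat protein that loads large cargo, was at 14.4, 13.1 and 13.4 FPKM at E3 and at 109, 101 and 35.4 FPKM at E5 (log2 fold change 2.78 ± 0.52, adjusted p = 0.00491). KDELR3, a receptor that retrieves endoplasmic reticulum proteins, was at 17.7, 18.5 and 19.6 FPKM and then at 124, 136 and 67.8 FPKM (2.74 ± 0.42, adjusted p = 0.00218). FKBP14, a peptidyl-prolyl isomerase of the endoplasmic reticulum, rose by 1.76 (adjusted p = 0.00541). All 3 were lowest at E5 in library 3, and over the list the median log2 ratio of library 3 to libraries 1 and 2 was -0.27. Keratocyte markers were also lowest in library 3, and their part in this result was not tested. The 2 genes that fell were MIA2, a cargo receptor (-0.48, adjusted p = 0.00632), and TMED5, a p24 cargo protein (-0.33, adjusted p = 0.00935).

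Lysosomal and autophagy genes rose in 26 of 66 cases and fell in 4 (45.5% called, median 0.31), with 15 rises without E3 library 1 or 2 and 17 rises and 7 falls when scaled by total. CD63, a tetraspanin of late endosomes, was at 103 to 106 FPKM at E3 and at 392, 327 and 210 FPKM at E5 (1.76 ± 0.31, adjusted p = 0.00369). MAP1LC3C, an autophagosome coat protein, was at 0.72 to 0.88 FPKM and then at 11.9, 13.3 and 64.8 FPKM (5.33 ± 0.94, adjusted p = 0.00377), with library 3 far above the others and a log2 fold change of 4.16 without it. GABARAPL1, of the same protein family, fell by 0.63 ± 0.08 (adjusted p = 0.000911).

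**Figure D3:**
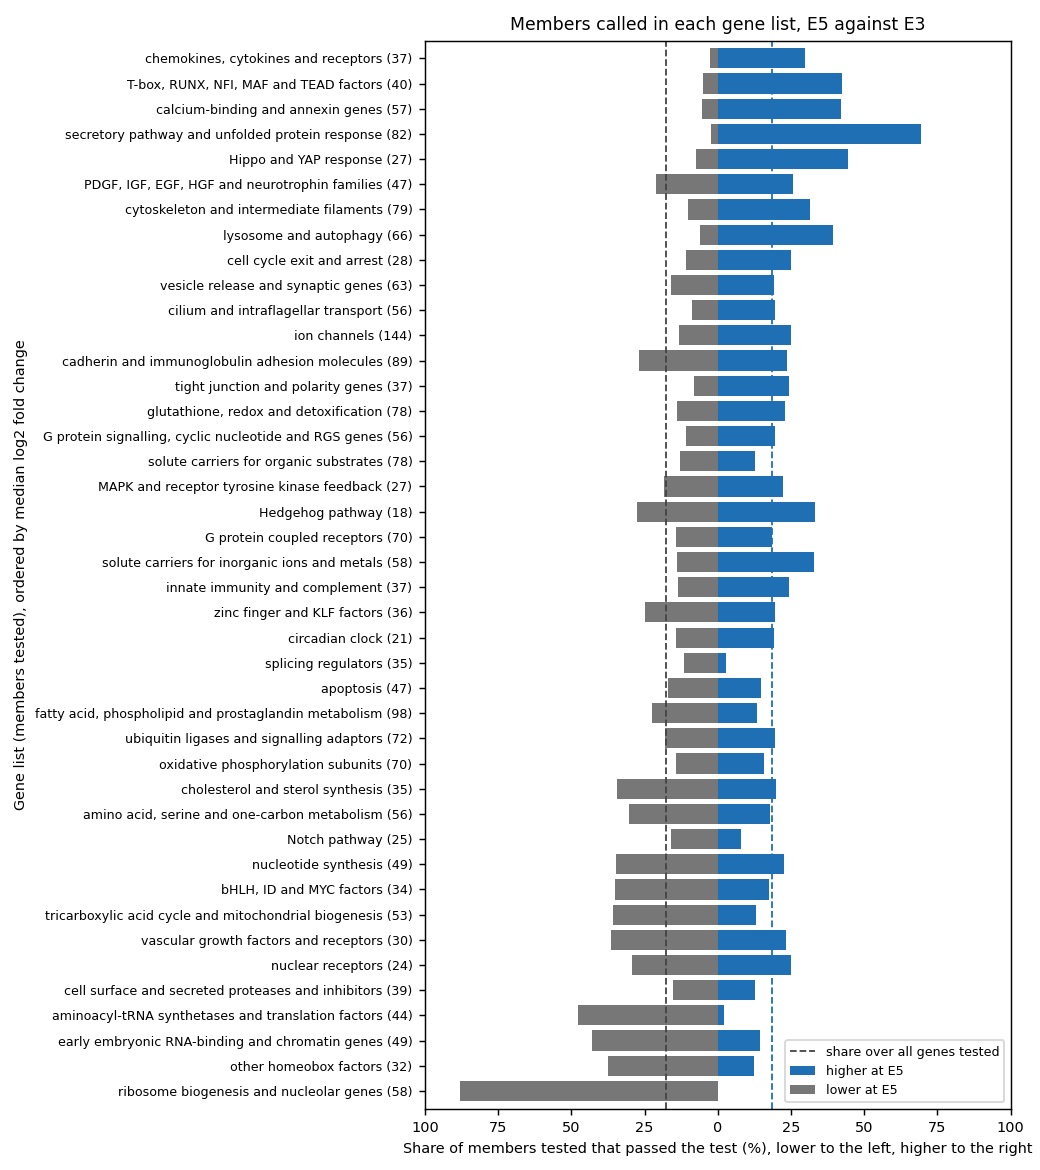
Share of tested members (%) that were higher (blue, right) or lower (grey, left) at E5 in each gene list shown, with the number tested in parentheses and the lists ordered by median log2 fold change; dashed lines mark 18.5% and 17.7%, the shares over all genes tested. Ribosome biogenesis (51 of 58 lower) and the secretory pathway (57 of 82 higher) stand farthest from the dashed lines.

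Hedgehog genes changed in both directions. Of 18 genes tested, 6 rose and 5 fell (61.1% called, median 0.15). HHIP, GLI1 and PTCH1, known as transcriptional targets of the pathway, all fell. HHIP, a decoy for the ligand, was at 9.06, 10.5 and 8.82 FPKM at E3 and at 0.24, 0.25 and 0.34 FPKM at E5 (log2 fold change -5.30 ± 0.31, adjusted p = 2.09e-05). GLI1, a transcriptional effector, was at 11.5, 11.7 and 12.4 FPKM and then at 0.56, 1.03 and 0.98 FPKM (-3.62 ± 0.22, adjusted p = 2.61e-05). PTCH1, the ligand receptor, was at 4.83, 4.96 and 4.55 FPKM and then at 0.36, 0.74 and 0.47 FPKM (adjusted p = 0.000764). The 3 falls were alike in all E5 libraries. Other members rose. GAS1, a ligand co-receptor also linked to growth arrest, went from 4.81, 4.41 and 4.47 FPKM to 38.9, 30.5 and 47.7 FPKM (3.27 ± 0.14, adjusted p = 6.3e-06). SCUBE3, a secreted protein of the family that releases the ligand, went from 4.04 to 4.52 FPKM to 19.7, 20.3 and 27.5 FPKM (2.56 ± 0.12, adjusted p = 8.42e-06), and the co-receptor CDON rose by 1.03 (adjusted p = 0.00626). SCUBE1, a relative of SCUBE3, fell with a log2 fold change of -3.14 (adjusted p = 0.0336), or -4.70 with E5 library 3 left out. The list had 4 rises and 5 falls when scaled by total.

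Feedback inhibitors of receptor tyrosine kinases gave 6 rises and 5 falls among 27 tested (40.7% called against 36.2% of all genes, median 0.15). SPRY1, a Sprouty protein induced by FGF signalling, went from 11.3, 10.1 and 13.1 FPKM to 80.9, 73.7 and 36.8 FPKM (2.83 ± 0.34, adjusted p = 0.000688), and SPRY4, a second member, from 0.89 to 2 FPKM to 18.7, 18.4 and 6.52 FPKM (3.72 ± 0.70, adjusted p = 0.00492). Both Sprouty genes, like FGF9, were lowest at E5 in library 3. LRIG1, a transmembrane inhibitor of growth factor receptors, went from 8.91 to 9.34 FPKM to 56.5, 58 and 50.7 FPKM (2.78 ± 0.13, adjusted p = 1.04e-05) and was even across E5. ERRFI1, which inhibits the EGF receptor, fell by 0.64 (adjusted p = 0.00845). The falls numbered 3 without E3 library 1, E3 library 2 or E5 library 1, and 5 genes rose and 7 fell when scaled by total.

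Of 27 genes of the Hippo pathway and YAP response, 12 rose and 2 fell (51.9% called, median 0.45), with 6 to 7 rises without any one E3 library and 7 without E5 library 2. When scaled by total, 8 rose and 3 fell. The transcriptional cofactor YAP1 itself went down, from 140, 138 and 128 FPKM to 77, 72.3 and 83.2 FPKM (-0.63 ± 0.07, adjusted p = 0.000414). CCN2, a matricellular protein, was at 23, 13.6 and 19.1 FPKM and then at 85.7, 75 and 268 FPKM (3.09 ± 0.58, adjusted p = 0.00473), and CYR61, of the same family, was at 30.5, 20.2 and 25.9 FPKM and then at 79.9, 109 and 250 FPKM (2.68 ± 0.54, adjusted p = 0.00665). Both were highest in E5 library 3, and their log2 fold changes without it were 2.33 and 2.10. AMOTL2 and ANKRD1, 2 further genes of the YAP response, had log2 fold changes of 0.73 and 1.57 (adjusted p = 0.0419 and 0.201), and AMOTL2 did not pass without E5 library 3 (0.49, adjusted p = 0.104). The kinase STK4, which restrains YAP1, was the other fall (-0.66, adjusted p = 0.00412).

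Notch pathway genes gave 2 rises and 4 falls among 25 (24% called against 36.2% of all genes, median -0.13). The falls were HEY1, HEYL, MAML2 and LFNG and the rises NOTCH2 and NUMB. LFNG, a glycosyltransferase of the receptor, went from 19.2, 16 and 20.5 FPKM to 7.41, 6.1 and 6.54 FPKM (-1.29 ± 0.14, adjusted p = 0.000461). HEY1, a target repressor of the pathway in vessels, was at 57.1, 55.7 and 60.4 FPKM and then at 0.89, 1.11 and 10.8 FPKM. E5 library 3 again lay between the groups, and the log2 fold change of -3.63 (adjusted p = 0.0261) became -5.64 without it (adjusted p = 0.00215), while the call was lost without any one of the other 5 libraries (adjusted p = 0.06 to 0.071). Without E5 library 3 the list had 3 rises and 10 falls, without the third E7 library 7 falls, and without E3 library 2 or 3 it had 1 rise. When scaled by total, 2 rose and 7 fell.

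**Figure D4:**
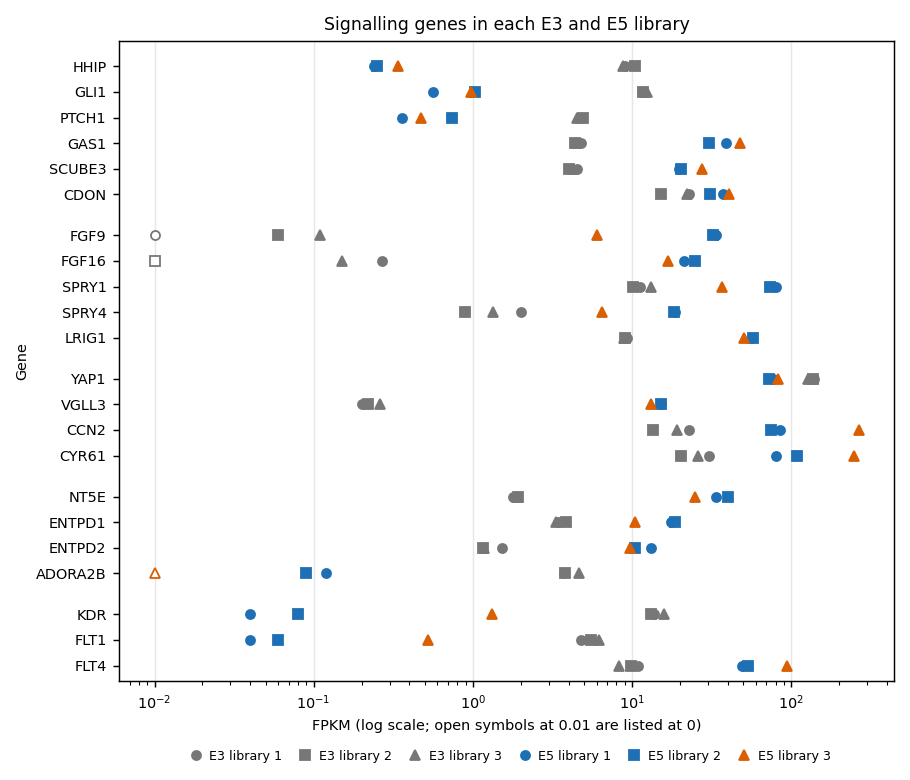
FPKM on a log scale of Hedgehog, FGF feedback, YAP, purine and VEGF receptor genes in each E3 (grey) and E5 library (blue, and orange for library 3), with an open symbol for a value listed at 0. HHIP, GLI1 and PTCH1 lie at 4.55 to 12.4 FPKM at E3 and at 0.24 to 1.03 FPKM at E5, while GAS1 and SCUBE3 move the other way and KDR and FLT1 are highest at E5 in library 3.

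Growth factors and binding proteins of the PDGF, IGF, EGF, HGF and neurotrophin families gave 12 rises and 10 falls among 47 (46.8% called, median 0.36). PTN, the heparin-binding factor pleiotrophin, was at 5.65, 6.77 and 5.05 FPKM and then at 247, 229 and 108 FPKM (5.26 ± 0.50, adjusted p = 0.000231). IGFBP2, which binds insulin-like growth factors, was at 3.58 to 4.52 FPKM and then at 74, 58.9 and 30.8 FPKM (3.97 ± 0.45, adjusted p = 0.000549). PDGFA and PDGFD, ligands of the PDGF receptors, rose by 3.74 and 2.27 (adjusted p = 0.00392 and 0.00359). PDGFA was highest at E5 in library 3, at 26.3 FPKM against 10.6 and 7.17 (log2 fold change 3.08 without it), whereas PDGFD was lowest there, at 20.3 FPKM against 40 and 32.5. The 10 falls were 5 without any one E3 library, 3 without E5 library 1 and 6 without E5 library 2.

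Vascular growth factors and receptors fell in 11 of 30 cases and rose in 7 (60% called, median -0.34). KDR, the main VEGF receptor of blood vessels, was at 13.8, 13.2 and 15.8 FPKM at E3 and at 0.04, 0.08 and 1.33 FPKM at E5 (-4.78 ± 1.17, or -7.64 with E5 library 3 left out, adjusted p = 0.0147). FLT1, a decoy receptor, was at 4.81 to 6.23 FPKM and then at 0.04, 0.06 and 0.52 FPKM (-4.63 ± 0.99, or -6.53 with E5 library 3 left out, adjusted p = 0.00844). FLT4, the lymphatic VEGF receptor, went the other way, from 10.9, 9.9 and 8.31 FPKM to 49.3, 53.5 and 94.6 FPKM (2.93 ± 0.27, adjusted p = 0.000208). KDR and FLT1 moved with other genes of vascular endothelium (TIE1, TEK and CLDN5 fell, with log2 fold changes of -2.30, -2.80 and -3.13), whereas FLT4 did not, and ERG, an endothelial transcription factor, rose by 1.70 (adjusted p = 0.00459). VEGFD, a ligand of KDR and FLT4, was at 153, 157 and 148 FPKM and then at 0.27, 0.99 and 13.4 FPKM. Its log2 fold change of -4.85 (adjusted p = 0.0269) was -7.66 without E5 library 3, and it lost its call without any one of the other 5 libraries (adjusted p = 0.0559 to 0.0776). The rises numbered 3 to 4 without any one E3 library and 4 without E5 library 1, and limma on FPKM (pseudocount 1) gave 4 rises and 14 falls.

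Chemokines, cytokines and their receptors had a median log2 fold change of 0.96, with 11 of 37 higher and 1 lower (32.4% called, a share near that of all genes), and 11 higher and 4 lower with limma on FPKM (pseudocount 1). OSMR, the oncostatin M receptor, was at 0.52, 0.51 and 0.42 FPKM and then at 18.4, 22.2 and 9.7 FPKM (5.28 ± 0.43, adjusted p = 0.000115). TNFRSF19, a receptor of the tumour necrosis factor family, was at 20 to 22.6 FPKM and then at 112, 160 and 218 FPKM (3.15 ± 0.31, adjusted p = 0.000287). TNFRSF11B, the secreted decoy osteoprotegerin, and EDA, the ligand ectodysplasin, rose by 2.32 and 2.25 (adjusted p = 0.000586 and 0.000149). CXCR4, the chemokine receptor of migrating crest and vascular cells, was the gene that fell, from 3.94, 4.66 and 6.76 FPKM to 0.41, 0.49 and 0.94 FPKM (-2.90 ± 0.53, adjusted p = 0.00441).

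Transporters of inorganic ions and metals rose in 19 of 58 cases and fell in 8 (46.6% called, median 0.14). The rises were 10 without E3 library 2 and 11 without E3 library 3 or E5 library 1, while the falls were 4 to 5 without any one E3 library or without E5 library 1 or 2. The split was 11 higher and 9 lower when scaled by total. AQP1 and SLC41A2 led the list. SLC39A13, a zinc exporter of the Golgi needed for collagen-secreting cells, was at 9.72, 9.61 and 10.1 FPKM and then at 37.1, 34.8 and 32.9 FPKM (2.02 ± 0.12, adjusted p = 2.15e-05). SLC30A10, a manganese exporter, fell by 3.38 (adjusted p = 0.00125).

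Among transporters of organic substrates, 10 of 78 rose and 10 fell (25.6% called, median 0.16), and 8 rose and 16 fell with limma on FPKM (pseudocount 1). SLC1A3, a glial-type glutamate transporter, went from 11.5, 11.7 and 9.7 FPKM to 0.4, 0.55 and 0.28 FPKM (-4.55 ± 0.32, adjusted p = 5.03e-05). SLC7A6, a cationic and neutral amino acid exchanger, rose by 1.55 ± 0.09 (adjusted p = 1.92e-05). Of 144 ion channel genes, 36 rose and 19 fell (38.2% called, near the share of all genes), with 23 rises without E3 library 1 or 2 and 11 to 12 falls without E3 library 2 or E5 library 1. The split was 32 higher and 25 lower when scaled by total and 23 higher and 27 lower with limma on FPKM (pseudocount 1). Voltage-gated potassium channel genes were among the rises: KCNG2 rose by 3.96, KCNA2 by 3.58 and the beta subunit KCNAB1 by 3.41 (adjusted p = 9.86e-05, 0.00285 and 0.00156). KCNK2, a leak potassium channel gated by stretch, fell from 11, 11.7 and 11 FPKM to 0.21, 0.48 and 0.69 FPKM (-4.46 ± 0.48, adjusted p = 0.000428).

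In the nucleotide list, 11 of 49 genes rose and 17 fell (57.1% called, median -0.15), with 7 rises without E3 library 3 and 8 rises and 22 falls when scaled by total. Enzymes that break down extracellular nucleotides were among the rises. NT5E, the ectonucleotidase that makes adenosine from AMP, was at 1.8, 1.92 and 1.9 FPKM and then at 33.9, 40.2 and 25 FPKM (4.32 ± 0.27, adjusted p = 2.61e-05). ENTPD2, which hydrolyses ATP, was at 1.16 to 1.52 FPKM and then at 13.2, 10.5 and 9.74 FPKM (3.29 ± 0.26, adjusted p = 8.94e-05), and ENTPD1, which hydrolyses ATP and ADP, was at 3.34 to 3.83 FPKM and then at 17.6, 18.7 and 10.4 FPKM (2.39 ± 0.36, adjusted p = 0.00188). ADORA2B, an adenosine receptor, went down from 3.74, 3.79 and 4.68 FPKM to 0.12, 0.09 and 0 FPKM (-5.54 ± 1.02, adjusted p = 0.00457). PPAT, the first enzyme of purine synthesis, fell from 41.9 to 42.4 FPKM to 12.7, 16.1 and 13 FPKM (-1.42 ± 0.12, adjusted p = 0.000115).

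G protein coupled receptors were called near the overall rate (13 higher and 10 lower of 70, 32.9%), with 16 falls without E5 library 3, 8 rises without any one E3 library and 7 without E5 library 1. With limma on FPKM (pseudocount 1), 9 rose and 17 fell. LGR5, the R-spondin receptor of stem cells, was at 2.95, 3.64 and 3.35 FPKM and then at 217, 296 and 39.2 FPKM (5.99 ± 1.05, adjusted p = 0.00371). Its relative LGR4 moved the other way, from 18.4 to 20.3 FPKM to 8.34, 9.25 and 9.7 FPKM (-0.92 ± 0.10, adjusted p = 0.000481). LGR5 was lowest in library 3, with a log2 fold change of 6.48 without it, and LGR4 was even. PRKG1, the cyclic GMP-dependent kinase, rose by 1.99 (adjusted p = 0.000208), and ADGRL2, an adhesion receptor of the latrophilin family, fell by 1.72 (adjusted p = 0.000584).

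Cadherins, protocadherins and immunoglobulin-type adhesion genes changed in 50.6% of 89 cases, 21 upwards and 24 downwards, with 15 falls without E3 library 2 or E5 library 2, and 15 upwards and 27 downwards with limma on FPKM (pseudocount 1). Neural adhesion genes were found in both groups. NEGR1, a GPI-anchored neuronal adhesion protein, rose from 0.19 to 0.44 FPKM to 5.25, 5.75 and 7.69 FPKM (4.53 ± 0.37, adjusted p = 0.000109), and the contactin CNTN3 rose by 3.05 (adjusted p = 7.18e-05), in contrast to CNTN4. CHL1, a close homologue of L1, was at 0.06 to 0.41 FPKM and then at 34.7, 35.1 and 2.13 FPKM (6.81 ± 1.53, or 7.36 with E5 library 3 left out, adjusted p = 0.0104), far lower in E5 library 3. CDH7, a cadherin of migrating crest, was at 3.66 to 4.2 FPKM and then at 0, 0 and 0.13 FPKM (-6.44, or -10.60 with E5 library 3 left out, adjusted p = 0.00687). The value without library 3 rests on E5 libraries listed at 0 FPKM and gives no measured size. CDH2, N-cadherin, was at 32.6, 39.9 and 35.5 FPKM and then at 84.6, 116 and 395 FPKM, so library 3 was the highest. It rose by 2.61 (adjusted p = 0.0141), by 1.68 without E5 library 3, and did not pass without E3 library 1, 2 or 3 (adjusted p = 0.0556, 0.05 and 0.0533).

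Cytoskeletal genes rose in 25 of 79 cases and fell in 8 (41.8% called against 36.2% of all genes, median 0.35). There were 15 or 16 rises and 4 or 5 falls without any one E3 library or without E5 library 1, and 5 falls without E5 library 2. When scaled by total, 17 rose and 13 fell, and limma on FPKM (pseudocount 1) gave 15 rises and 18 falls. DPYSL3, a collapsin response mediator, went from 39.1, 38.9 and 45.5 FPKM to 295, 253 and 385 FPKM (3.06 ± 0.14, adjusted p = 8.63e-06). MAP2, a microtubule protein best known from dendrites, went from 7.33, 8.58 and 6.48 FPKM to 54.2, 47.8 and 42.2 FPKM (2.88 ± 0.20, adjusted p = 5.03e-05). CRMP1, a second collapsin response mediator, rose by 1.93 ± 0.11 (adjusted p = 1.83e-05). Neurofilament NEFM, by contrast, fell from 3.83 to 4.87 FPKM to 0.7, 0.22 and 0.12 FPKM (-3.43 ± 0.61, adjusted p = 0.00398), and STMN2, a neuronal stathmin at 1.94 to 3.46 FPKM at E3, had no counts at E5 and was at least 45.4-fold lower (adjusted p = 0.00398). Genes known from neurons were thus found in both directions in this list, and 5 of 9 neuronal markers fell.

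Calcium-binding and annexin genes rose in 24 of 57 cases and fell in 3 (47.4% called, median 0.61), with 15 rises without E3 library 3 and 1 fall without any one E3 library or E5 library 1 or 2. Limma on FPKM (pseudocount 1) gave 17 rises and 5 falls. ANXA2, a membrane-binding annexin, went from 17, 18.9 and 14.3 FPKM to 98.9, 87.6 and 60.3 FPKM (2.47 ± 0.26, adjusted p = 0.000397). S100A6, the calcyclin S100 protein, went from 6.04 to 7.62 FPKM to 38.3, 35.2 and 44.1 FPKM (2.72 ± 0.25, adjusted p = 0.000217), while S100A1 was lost. CAMK1D, a calmodulin-dependent kinase, rose by 3.33 ± 0.18 (adjusted p = 1.61e-05). Of 39 secreted and surface proteases and inhibitors, 5 rose and 6 fell (28.2% called, median -0.36), with 3 falls without E3 library 2 or 3 and 13 with limma on FPKM (pseudocount 1). HTRA1, a secreted serine protease, was at 11.9, 8.99 and 9.85 FPKM and then at 325, 301 and 192 FPKM (4.92 ± 0.37, adjusted p = 7e-05). ST14, the membrane protease matriptase, rose by 4.47 (adjusted p = 0.000109), and THBD, the anticoagulant receptor thrombomodulin, from 9.6 to 12.7 FPKM to 63.4, 57.7 and 168 FPKM (3.31 ± 0.49, or 2.69 with E5 library 3 left out, adjusted p = 0.00176).

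Metabolic lists gave changes in both directions. Cholesterol and sterol genes fell in 12 of 35 cases and rose in 7 (54.3% called, median -0.04), with 4 rises without E3 library 1. HMGCS1 and NSDHL, enzymes of cholesterol synthesis, fell, with log2 fold changes of -0.75 and -1.06 (adjusted p = 0.00273 and 0.00193), and CYP46A1, which hydroxylates cholesterol, rose by 1.33 (adjusted p = 0.000397). Fatty acid, phospholipid and prostaglandin genes fell in 22 of 98 cases and rose in 13 (35.7% called, near the 36.2% of all genes, median 0.03). There were 12 to 14 falls without any one E3 library or without E5 library 1 or 2, and 10 rises and 29 falls when scaled by total. ACSBG2, an acyl-CoA synthetase, was at 8.58, 9.2 and 9.34 FPKM and then at 120, 122 and 44.9 FPKM (3.60 ± 0.54, adjusted p = 0.0019). SPHK1, sphingosine kinase, rose by 2.82 (adjusted p = 6.44e-05), FABP5, a fatty acid binding protein, fell by 4.15 (adjusted p = 0.013), and PLA2R1, a phospholipase receptor, fell by 1.28 ± 0.08 (adjusted p = 3.62e-05).

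Redox and detoxification genes rose in 18 of 78 cases and fell in 11 (37.2% called, near the 36.2% of all genes, median 0.19). There were 11 rises without E3 library 1 or 2. The balance turned with the scaling, to 14 rises and 18 falls when scaled by total and 15 and 21 with limma on FPKM (pseudocount 1). SELENOM, a selenoprotein of the endoplasmic reticulum, went from 40.6, 42.9 and 48.5 FPKM to 253, 198 and 142 FPKM (2.36 ± 0.30, adjusted p = 0.000947), and GPX7, a glutathione peroxidase of the same compartment, from 24.4 to 25.8 FPKM to 133, 119 and 54.1 FPKM (2.21 ± 0.42, adjusted p = 0.00537). HMOX1, haem oxygenase, fell by 1.01 (adjusted p = 0.00213). Polyamine enzymes moved apart, as ODC, ornithine decarboxylase, fell from 260, 278 and 288 FPKM to 87.8, 116 and 156 FPKM (-1.03 ± 0.18, adjusted p = 0.00366) while SAT1, which acetylates polyamines for export, rose from 37.2 to 40.7 FPKM to 82 to 86.5 FPKM (1.31 ± 0.07, adjusted p = 1.66e-05). The direction of respiratory chain subunits depended on the scaling. Of 70, 11 were higher and 10 lower (30% called against 36.2% of all genes, median -0.02), but 0 were higher and 17 lower when libraries were scaled by total. The counts were 3 to 5 higher and 2 to 4 lower without any one E3 library.

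Several lists lay near the overall share of calls. Among 28 genes of growth arrest, 7 rose and 3 fell (35.7%), with 3 rises without any one E3 library or E5 library 1 or 2, and 1 fall without any one E3 library. Scaled by total, 4 rose and 5 fell, and limma on FPKM gave 5 and 5. BTG1, an antiproliferative factor, rose from 57.5 to 61.1 FPKM to 246, 234 and 215 FPKM (2.15 ± 0.15, adjusted p = 5.61e-05), and SESN1, a stress-induced sestrin, fell by 2.74 (adjusted p = 0.000115). Apoptosis genes (7 higher and 8 lower of 47, 31.9%, with 4 higher without E3 library 1 or E5 library 2 and 5 lower without E3 library 2 or 3) included RIPK2, an adaptor kinase of innate signalling, which rose by 1.95 (adjusted p = 4.64e-05). In the circadian list (4 higher and 3 lower of 21, 33.3%), NR1D2, a clock repressor, fell by 1.28 ± 0.10 (adjusted p = 0.000115). Vesicle and synaptic genes (12 higher and 10 lower of 63, 34.9%, with 6 higher without E3 library 2 or 3 and 7 without E5 library 1, and 8 higher and 13 lower when scaled by total) included RAB3IP, an exchange factor of secretory Rab proteins, which rose by 3.54 (adjusted p = 6.05e-05), and the neuropeptides NPY and PENK, which fell, with log2 fold changes of -4.28 and -3.30 (adjusted p = 0.000905 and 0.00779).

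Outside the matrix, WNT, crest and haemoglobin lists, 9 of the 10 most abundant genes were shared by both tissues. ACTB, cytoplasmic actin, was at 2477, 2334 and 2600 FPKM at E3 and at 2620, 3025 and 3724 FPKM at E5 (0.51 ± 0.11, adjusted p = 0.00989), but did not pass without E3 library 2 (adjusted p = 0.052) or when scaled by total (0.34, adjusted p = 0.0859). EEF1A1, a translation elongation factor, was at 2943 to 3027 FPKM and then at 2608 to 3031 FPKM (0.08, adjusted p = 0.52). GAPDH, a glycolytic enzyme, was at 2920 to 3024 FPKM and then at 2314 to 2526 FPKM (-0.10, adjusted p = 0.345), and passed as lower when scaled by total (-0.28, adjusted p = 0.0122). NPM1 was the gene among the 10 most abundant at E3 that was not among the 10 at E5.

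E5 library 3 departed from libraries 1 and 2 in 689 genes that were 1 or more log2 units above and in 621 that were as far below, of the 11748 tested. These differences are of 1 library against 2 and were not tested. Among genes that passed as higher at E5, library 3 was at least 1 log2 unit below the others in 206 and above them in 96, with a median log2 ratio of -0.17. Among genes that passed as lower it was above in 75 and below in 7, with a median of 0.12. The ratio adds 1 to CPM, so a gene near 0 in libraries 1 and 2 could not lie far below them in library 3. The split for lower genes is therefore partly fixed by the measure. Called genes were also taken whose mean log2 of CPM plus 1 changed by 1 or more, a measure other than the fitted fold change. In them, the change seen in library 3 was a median 0.82 of that in libraries 1 and 2 for 1040 rises and 0.83 for 590 falls. Library 3 entered both the call and the mean, so genes in which it changed little were less often taken. These medians are therefore partly fixed by the choice of genes. Of the 2172 genes called higher, 1971 were also called higher without library 3, and of the 2077 called lower, 1860 were.

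The genes farthest below in library 3 were higher in libraries 1 and 2, which their choice by the ratio of library 3 to these libraries required. CXCL14, a chemokine of epithelia and mesenchyme, was at 112, 53.2 and 0.18 FPKM in E5 libraries 1, 2 and 3 and at 1.04 to 1.74 FPKM at E3. NKAIN4, a small membrane protein, was at 92.8, 81.1 and 1.51 FPKM, and the transcription factor MYBL1 at 53.1, 44.3 and 1.46 FPKM. The E3 ranges, 5.32 to 7.21 and 1.14 to 2.24 FPKM, contained or exceeded the library 3 values. Likewise, IRX3, an Iroquois factor, was at 42.1, 33.4 and 1.23 FPKM, SP5, a WNT-responsive zinc-finger factor, at 25.6, 17 and 0.57 FPKM, CHRNA4, an acetylcholine receptor subunit, at 17.9, 13.3 and 0.22 FPKM, TWIST3, of the TWIST family, at 72.5, 47.1 and 1.89 FPKM, and FAM129A at 97.3, 103 and 3.72 FPKM. FAM129A, TWIST3 and CHRNA4 passed as higher at E5 (adjusted p = 0.034, 0.0436 and 0.0499), and lost the call without any one of the E3 libraries or E5 libraries 1 or 2 (adjusted p = 0.0733 to 0.142).

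The genes farthest above in library 3 were lower in libraries 1 and 2, which their choice by this ratio required. CXCL12, the ligand of CXCR4, was at 7.53, 17.1 and 246 FPKM in E5 libraries 1, 2 and 3 and at 59.6, 61 and 53.4 FPKM at E3. MEOX1, a mesodermal homeobox factor, was at 0.45, 0.77 and 19.4 FPKM with 3.76 to 5.97 FPKM at E3. MOXD1, a monooxygenase-like protein, was at 0.32, 0.09 and 10.1 FPKM with 27.9 to 30.1 FPKM at E3, and it passed as lower at E5 without library 3 (log2 fold change -6.89, adjusted p = 0.0114) but not with it (-2.93, adjusted p = 0.173). GSTA4, a glutathione transferase, was at 0, 2.05 and 44.1 FPKM, C1QTNF4, a complement-related secreted protein, at 1.78, 1.09 and 42 FPKM, the matrix protein VIT at 0.64, 0.4 and 14.4 FPKM, HSD17B2, a steroid dehydrogenase, at 0.67, 0.26 and 10.5 FPKM, and SH3BGR at 0.32, 0.04 and 13 FPKM, all at 0.88 FPKM or less at E3. Of these 5 genes HSD17B2 passed as higher at E5 (adjusted p = 0.0304), and not without any one E3 library (adjusted p = 0.0922 to 0.0959) or without E5 library 3 (0.0902). C1QTNF4 had a log2 fold change of 4.79 with library 3 (adjusted p = 0.0613) and 1.5 without it (0.378). For SH3BGR the values were 6.67 (adjusted p = 0.0707) and 2.19 (0.483). Beside these, summed epithelial markers were 62.1 to 66.7 scaled CPM at E3 and 35.9, 26.3 and 187.6 in E5 libraries 1, 2 and 3, with EPCAM, an epithelial adhesion protein, at 1.61, 1.98 and 31.7 FPKM and CDH1, E-cadherin, at 1.46, 1.01 and 8.85 FPKM. The keratin KRT5 was at 0.07 FPKM or less in every E5 library. Schwann and glial markers summed to 33.7, 37.9 and 296.3 and mural markers to 103.3, 166.4 and 442.1 in E5 libraries 1, 2 and 3. The first sum rose mostly through FABP7 (41.6, 48.4 and 420 FPKM) and the second through ACTA2 (62.6, 106 and 364 FPKM). SOX10, another gene of the glial list, was at 0.01, 0.01 and 0.53 FPKM, also highest in library 3. RGS5, another gene of the mural list, was at 0.08 FPKM or less. Cartilage markers summed to 506.9 to 569.7 scaled CPM at E3 and to 2689, 1816 and 4936 in E5 libraries 1, 2 and 3. Of 10 cartilage markers tested, 2 rose and 3 fell (50% called against 36.2% of all genes, median log2 fold change 2.10). Their median log2 ratio of library 3 to libraries 1 and 2 was -0.34, so the high sum in library 3 does not give the direction of most members. Leukocyte markers summed to 55.7 to 64.8 at E3 and 37.4, 27.4 and 78.1 at E5. The part of all these cell types in the departure of library 3 was not tested.

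**Figure D5:**
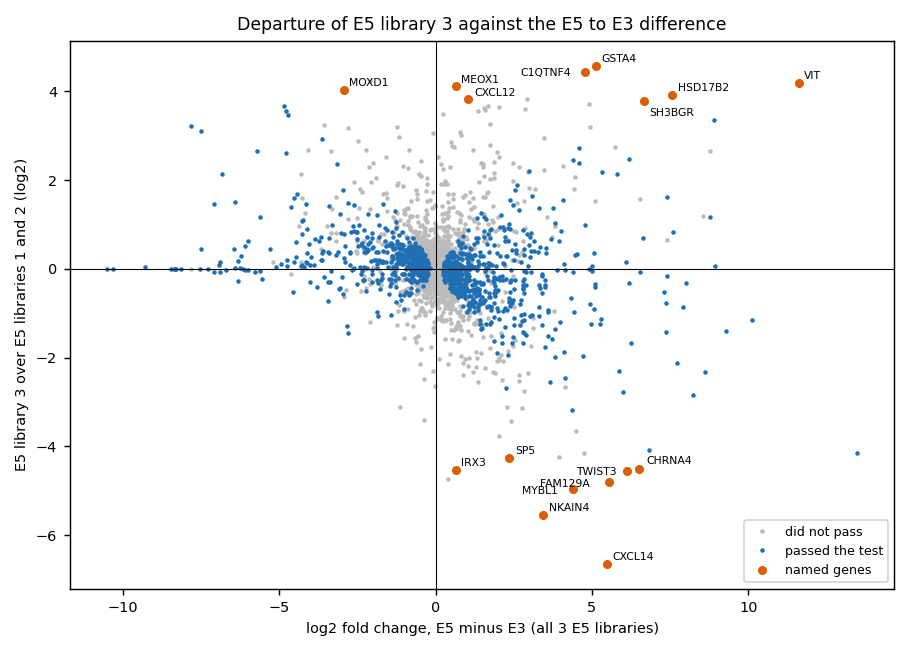
Log2 ratio of E5 library 3 to the mean of E5 libraries 1 and 2 (vertical) against the log2 fold change from E3 to E5 (horizontal) for the tested genes of the lists and the naming rule, with 16 named genes in orange. Risen genes spread more often below 0 and fallen genes above 0, and CXCL14 and NKAIN4 are the lowest points. Fallen genes near 0 in E5 libraries 1 and 2 could not lie far below 0 on this measure.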

How the data were processed

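Total RNA of 3 E3, 3 E5 and 3 E7 libraries was sequenced. Bowtie2, HISAT and galGal5 are named in the submitters' processing notes; for the counting program, annotation and strand setting, the sources used here give nothing. The authors deposited an expected count and an FPKM value per entry, per the file headers. Of 46855 entries, 23918 were matched by gene number or accession to genes of the RefSeq table (GRCg7b, used for names and gene order only). A further 40 gene numbers without a match were kept under their number, which gave 14120 genes in all. Expected counts of these entries were summed per gene and rounded, and FPKM was summed. Of these genes, 5032 had 2 or more entries. Reads of overlapping, antisense or near-identical genes may be shared.

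Genes kept by filterByExpr, 11748 in all, were tested with edgeR 4.0.16 (TMM, quasi-likelihood test, all 9 libraries in 3 groups, R 4.3.3) at a Benjamini-Hochberg adjusted p of 0.05. The code was tested on simulated data, where 32 of 100 genes changed 2-fold and 75 of 100 changed 4-fold were recovered. Genes that did not pass may therefore still differ. The standard error is the log2 fold change over the square root of F. Floors are 3 counts over a group, and floors and 95% intervals cover counting error only. Alternatives used DESeq2 1.42.0, limma 3.58.1, other scalings and filters, single-entry genes, fewer libraries and a replicate block. Groups came from the labels. Members and lists were chosen with earlier results of these data known. Named genes were, outside the matrix, WNT, crest and haemoglobin lists, the 12 largest rises and falls without overlap between groups and with a mean of 5 FPKM or more, up to 4 genes per list and direction with 2 FPKM or more, 8 per direction that departed most in E5 library 3, 8 per direction that were within 1.5-fold across E5, and the 10 most abundant. Falls within 1.5-fold also needed a mean of 1 FPKM or more at E5. Other genes named (list members called in lists with few calls, and cell type markers) illustrate a count.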

Additional observations from a re-analysis of the deposited data

Results flagged for a closer look

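Accession entries without a matched gene were left out of the comparison and carried 23.5%, 22.7% and 22.7% of the counts in E5 libraries 1, 2 and 3. The E3 libraries had 21.4% to 21.7% of their counts on such entries, so each E5 library lay above every E3 library in data outside the main measurement.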

How the results depend on the processing

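Of the 197 genes followed through the alternatives, 177 kept their side of the threshold under each of the 19 alternatives that gave them a value. No gene that passed in the main fit or in the alternative changed direction between them. Changes of sign in genes that passed in neither were not counted. Some named genes were not among the 197, and of these AMOTL2 and SRSF2 lost their calls when certain libraries were left out. Genes higher and lower at E5 numbered 2172 and 2077, with 1219 and 677 at a log2 fold change of 1 or more. Restricted to genes with a single entry, where fewer genes were tested, these counts were 1289, 1283, 710 and 447. With limma on log2(FPKM + 0.1) 3147 genes were lower, and with a pseudocount of 1 3200 were lower and 651 were higher by 1 or more; the cause was not tested. Leaving out 1 library at a time gave 1424 to 2495 higher, 1334 to 2306 lower, 909 to 1356 higher by 1 or more and 485 to 888 lower by 1 or more. Same-numbered E3 and E5 libraries deviated from their group means with correlations of 0.012, 0.085 and 0.073, and differently numbered ones with -0.128 to 0.036. E3 libraries 2 and 3 correlated best with the E5 library of the same number, and E3 library 1 with E5 library 2 (0.036). All these correlations were small, and the numbers were not taken as pairs. With the replicate block 1603 genes were higher and 1525 lower. A gene with no counts in a group is bounded at 3 counts over that group, so differences of genes near that depth were not detectable.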
